A study of Mus musculus with 10 samples.

Results

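The genes described here encode the enzymes, and 1 helper protein, that make leukotrienes and prostaglandins from membrane lipids. Of the 10 genes listed (Alox5, Alox5ap, Ltc4s, Lta4h, Ptgs1, Hpgds, Tbxas1, Ptges, Pla2g4a and Pla2g10), 9 were measured among the 18820 genes of the array table. A gene was taken from the probe set that carries its symbol alone, and each of the 9 had 1 such probe set. Ptgs1 was not analysed here.

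Phospholipases A2 release arachidonic acid from membranes, and 2 branches of enzymes then convert it. In the leukotriene branch, 5-lipoxygenase (Alox5) works with its activating protein (Alox5ap) to make leukotriene A4, which leukotriene A4 hydrolase (Lta4h) turns into leukotriene B4 and leukotriene C4 synthase (Ltc4s) turns into the first of the cysteinyl leukotrienes. In the prostanoid branch, cyclooxygenases (Ptgs1 and Ptgs2) make prostaglandin H2, from which separate synthases make prostaglandin D2 (Hpgds), prostaglandin E2 (Ptges) and thromboxane (Tbxas1). In the intestinal epithelium, tuft cells, rare chemosensory cells, are known as a source of cysteinyl leukotrienes and prostaglandin D2, while mast cells, macrophages and eosinophils of the gut wall use the same enzymes.

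Expression was measured in epithelial cells sorted by fluorescence from mouse intestine, on 10 Affymetrix Mouse Gene ST 1.1 arrays of 1 sample each. The mice carried 2 reporters. In the Lgr5-EGFP-ires-CreERT2 allele, GFP follows the promoter of Lgr5, a receptor of crypt base stem cells, and in the Ki67-TagRFP allele a red fluorescent protein is joined to the end of the endogenous Ki67 protein, which cycling cells contain. The Lgr5-high Ki67-high, Lgr5-high Ki67-low and Lgr5-medium Ki67-low groups had 2 arrays each and the Lgr5-medium Ki67-high group had 4. The labels name no treatment and give no age, and they do not say how many animals entered a sample or whether replicates came from separate animals, so a p-value here reflects variation among these samples only, and that variation may be technical. The study set out to divide crypt base columnar cells into fast and slow cycling fractions.

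The epithelial label was checked with Epcam (11.39 to 11.79 over the 10 arrays), Cdh1 (10.96 to 11.40) and Krt8 (12.43 to 12.75), all on the log2 scale of the deposited values, on which the median gene had a mean of 5.06. Ptprc, a gene of white blood cells read in the same check, lay between 4.25 and 5.77. All of these genes were chosen after the other lists. Lgr5 was higher by 1.99 in Lgr5-high than in Lgr5-medium cells at high Ki67 (limma adjusted p = 0.00104) and by 1.64 at low Ki67 (adjusted p = 0.00054). It was also higher by 1.20 in Lgr5-medium Ki67-low than in Lgr5-medium Ki67-high cells (adjusted p = 0.000986), so the Ki67 groups at medium Lgr5 were not matched for Lgr5 messenger RNA. At high Lgr5 this difference was 0.84 ± 0.16 (SE; limma adjusted p = 0.598). Only 1 gene passed in that comparison, so its adjusted p does not show that those groups were matched. Mki67, the gene of the tagged Ki67 protein, differed by -0.29 between low and high reporter cells at medium Lgr5 (adjusted p = 0.249) and by -0.11 at high Lgr5, neither of which passed the test. Lgr5-medium Ki67-high replicate 4 stood apart from the other arrays, with the lowest mean correlation to them (0.9891) and the lowest array weight (0.2937). Results that change without that array are given with and without it.

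RefSeq promoter windows of assembly GRCm38.p6, which run from 250 bases before to 50 bases after a start site, were given for 8 of the 9 measured genes, with Alox5ap named only. They were searched on both strands for the octamer ATGCAAAT (reverse complement ATTTGCAT), the letters bound by POU domain factors of the family that includes Pou2f3, which specifies tuft cells, and for the GC box GGGCGG and its reverse complement; the GC box was added after the data were seen. The octamer occurred in 1.74% of the 32851 mouse windows and the GC box in 35.7%. Among the 8 genes the octamer was found only in the window of Hpgds, at positions -174 to -167 on the gene's own strand, where -1 is the last base before the start site. A GC box was found once for Alox5, at positions -35 to -30, 2 times each for Ptges and Pla2g10, and in none of the windows of Ltc4s, Lta4h, Tbxas1, Hpgds or Pla2g4a. The octamer and its surroundings in Hpgds (chr6:65144886-65144915, minus strand) and the 250 bases before the starts of Alox5 (chr6:116461179-116461428, minus strand) and Ltc4s (chr11:50238533-50238782, minus strand) are shown because these 3 genes rose in the same group of cells while their windows held different letters. Sequences read 5′ to 3′ on the gene's strand, and capitals mark the octamer in Hpgds and the GC box in Alox5.
Hpgds: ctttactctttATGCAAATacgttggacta
Alox5: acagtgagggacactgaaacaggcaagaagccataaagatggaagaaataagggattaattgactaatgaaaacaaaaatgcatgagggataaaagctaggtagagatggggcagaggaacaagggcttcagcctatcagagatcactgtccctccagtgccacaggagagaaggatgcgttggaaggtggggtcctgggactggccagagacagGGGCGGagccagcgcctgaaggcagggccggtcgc
Ltc4s: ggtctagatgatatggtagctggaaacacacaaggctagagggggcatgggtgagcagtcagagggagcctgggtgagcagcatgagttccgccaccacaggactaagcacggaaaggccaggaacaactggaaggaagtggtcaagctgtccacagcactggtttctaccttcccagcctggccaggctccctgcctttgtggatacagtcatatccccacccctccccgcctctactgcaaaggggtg
A match is a description of letters, and no peak, methylation or binding data bear on these windows here. The start site of the window lies at the outer end of the annotated gene for Alox5, Ltc4s and Lta4h, and inside the annotated gene for Hpgds, Pla2g10, Ptges and Tbxas1.

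The question of the first comparison was how low Ki67 cells differ from high Ki67 cells at medium Lgr5. The enzyme that starts the leukotriene branch with its activating protein, the cysteinyl leukotriene synthase, the prostaglandin D2 synthase and 1 secreted phospholipase were higher in Lgr5-medium Ki67-low cells: Alox5, Alox5ap, Ltc4s, Hpgds and Pla2g10. The leukotriene B4 enzyme Lta4h, the thromboxane synthase Tbxas1, the prostaglandin E2 synthase Ptges and the cytosolic phospholipase Pla2g4a did not pass the threshold, an adjusted p of 0.05 in limma over all 18820 genes. Thus 5 of the 9 genes passed, all of them higher, where 3.58% of all genes passed in either direction and 2.65% were higher. The median difference was 1.5 over the 9 genes and -0.019 over all genes. With each array centred on its median, the median of all genes in this comparison moved to -0.15 and 417 of 1184 genes called were higher, against 499 of 674 in the values as deposited, and the same 5 genes passed. In bulk samples like these, fewer cells of a type and less RNA per cell cannot be told apart.

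**Figure D1:**
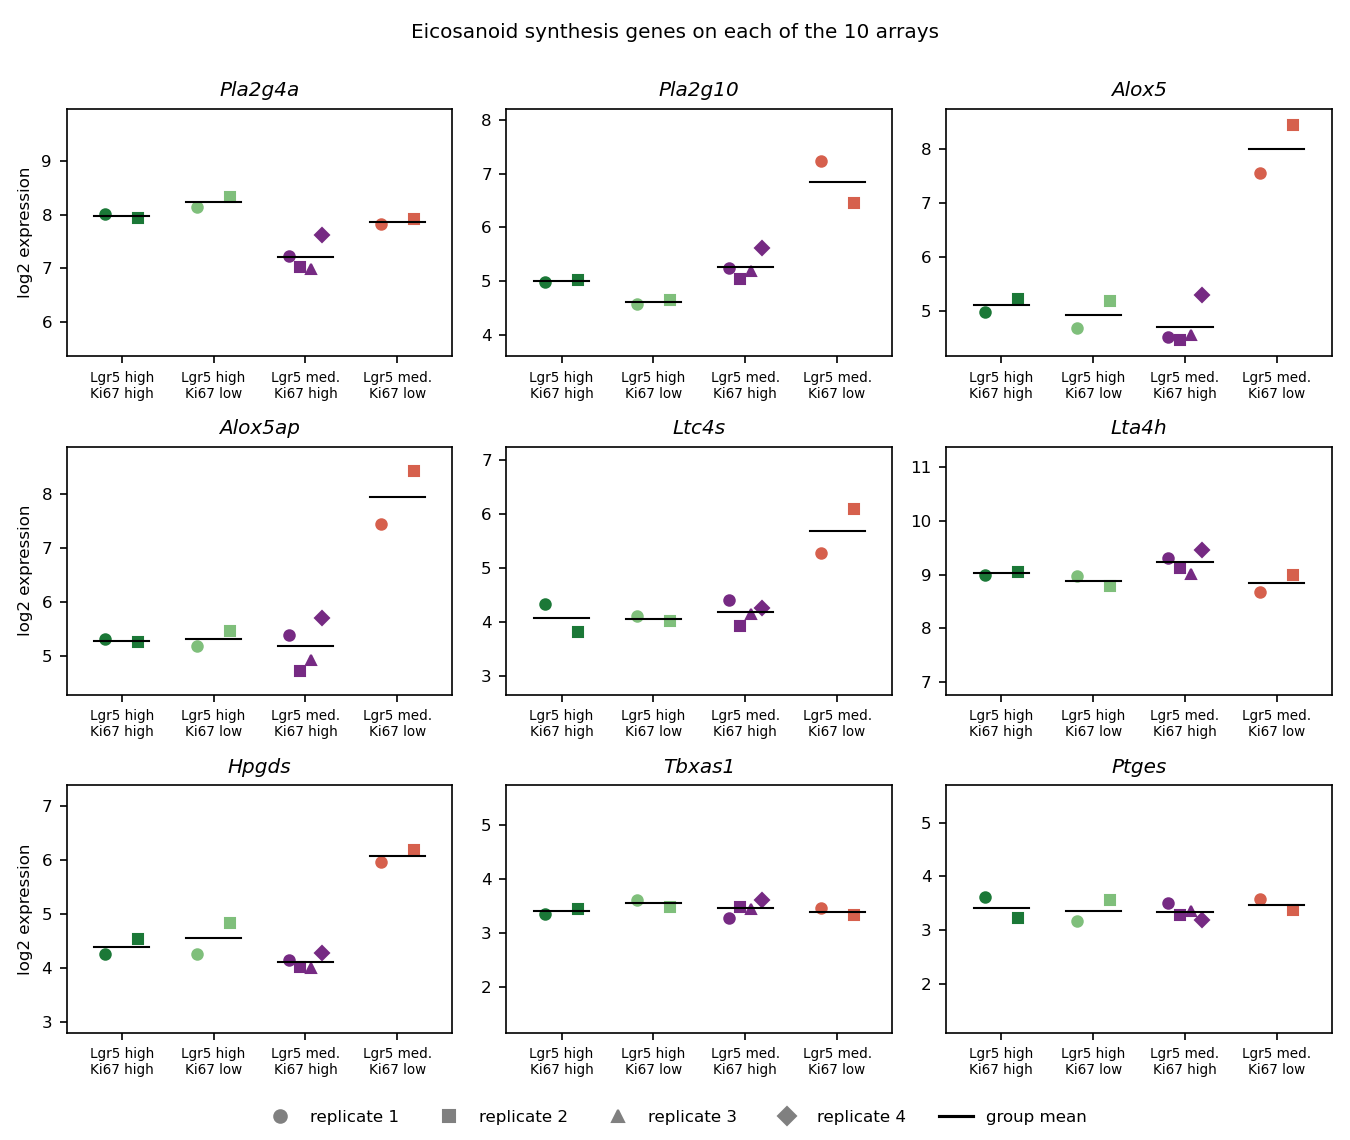
Log2 expression (vertical axis, each panel spanning the same number of log2 units) of the 9 measured genes on each of the 10 arrays, grouped by sort (horizontal axis); the marker shape gives the replicate and the line the group mean. Alox5, Alox5ap, Ltc4s, Hpgds and Pla2g10 are high on both Lgr5-medium Ki67-low arrays alone, and Pla2g4a is lowest in the Lgr5-medium Ki67-high group.

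Alox5 (probe set 10547153; chr6:116410071-116461178 in GRCm38.p6), the lipoxygenase at the head of the leukotriene branch, had log2 values of 7.56 and 8.46 on the Lgr5-medium Ki67-low arrays. On the Lgr5-medium Ki67-high arrays it had 4.52, 4.45, 4.56 and 5.29. The Lgr5-high Ki67-high arrays gave 4.98 and 5.22, and the Lgr5-high Ki67-low arrays 4.68 and 5.18. The 2 Lgr5-medium Ki67-low arrays therefore lay above all 8 others, which overlapped among themselves. Group means were 8.01 ± 0.63 (SD, n = 2) and 4.70 ± 0.40 (n = 4) in low and high Ki67 cells at medium Lgr5, a log2 difference of 3.30 ± 0.29 (SE; 95% interval 2.67 to 3.94; adjusted p = 0.000187), or 9.88-fold.

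Alox5ap (probe set 10527638; chr5:149265004-149288153) encodes the membrane protein that presents arachidonic acid to 5-lipoxygenase. Its log2 values were 7.46 and 8.44 in Lgr5-medium Ki67-low cells and 5.38, 4.72, 4.93 and 5.71 in Lgr5-medium Ki67-high cells. They were 5.31 and 5.25 in Lgr5-high Ki67-high cells and 5.18 and 5.46 in Lgr5-high Ki67-low cells. As for Alox5, replicate 2 of the Lgr5-medium Ki67-low group was the higher of its pair and both lay above the other 8 arrays. The log2 difference between low and high Ki67 at medium Lgr5 was 2.76 ± 0.30 (SE; 95% interval 2.09 to 3.43; adjusted p = 0.00068), from means of 7.95 ± 0.70 (SD, n = 2) and 5.19 ± 0.45 (n = 4).

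Ltc4s (probe set 10385583; chr11:50236461-50238532), which joins glutathione to leukotriene A4, stood at log2 values of 5.29 and 6.09 in Lgr5-medium Ki67-low cells. It stood at 4.41, 3.92, 4.15 and 4.27 in Lgr5-medium Ki67-high cells, at 4.33 and 3.81 in Lgr5-high Ki67-high cells and at 4.11 and 4.01 in Lgr5-high Ki67-low cells. Both Lgr5-medium Ki67-low arrays again lay above the rest, where the groups overlapped. The log2 difference was 1.5 ± 0.22 (SE; 95% interval 1.0 to 2.0; adjusted p = 0.00446).

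Lta4h (probe set 10365749; chr10:93453396-93484896), the enzyme of the leukotriene B4 arm, was high on all 10 arrays and differed little. Its log2 values were 8.69 and 9.0 in Lgr5-medium Ki67-low cells and 9.32, 9.12, 9.02 and 9.46 in Lgr5-medium Ki67-high cells. In Lgr5-high cells they were 8.99 and 9.05 at high Ki67 and 8.98 and 8.78 at low Ki67. The log2 difference at medium Lgr5 was -0.38 ± 0.14 (SE; 95% interval -0.69 to -0.077; limma adjusted p = 0.20), so the test over all genes was not passed. The arrays of both groups did not overlap, which held for 7 of the 9 genes in this comparison. How many of all genes lacked overlap was not counted.

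On the prostanoid side, Hpgds (probe set 10545101; chr6:65117293-65144981), the hematopoietic prostaglandin D synthase, had log2 values of 5.97 and 6.19 in Lgr5-medium Ki67-low cells. Its values were 4.14, 4.02, 4.0 and 4.28 in Lgr5-medium Ki67-high cells, 4.26 and 4.53 in Lgr5-high Ki67-high cells and 4.27 and 4.83 in Lgr5-high Ki67-low cells. Its pair of high arrays lay closest together among the 5 genes that rose. The log2 difference was 1.97 ± 0.16 (SE; 95% interval 1.62 to 2.32; adjusted p = 0.00012).

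The other synthases of this branch were low and level. Tbxas1 (probe set 10537410; chr6:38864159-39084590) ranged from 3.27 to 3.62 over the 10 arrays on the log2 scale, with a difference of -0.06 ± 0.10 (SE; 95% interval -0.29 to 0.17; adjusted p = 0.849). Ptges (probe set 10481518; chr2:30889471-30931020) ranged from 3.17 to 3.62, with a difference of 0.14 ± 0.15 (SE; 95% interval -0.20 to 0.47; adjusted p = 0.744). The groups overlapped for both genes, and the intervals of their array values exclude differences of the size seen for Alox5, Alox5ap, Ltc4s or Hpgds. Their means over the 10 arrays, 3.45 and 3.39, lay below that of the median gene (5.06). No background reading was used to set a detection limit, so these intervals do not show that the transcripts were unchanged.

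The order of the groups was not the same for both phospholipases. Pla2g10 (probe set 10437804; chr16:13715057-13731094), a secreted enzyme, had log2 values of 7.23 and 6.45 in Lgr5-medium Ki67-low cells. It had 5.24, 5.04, 5.19 and 5.61 in Lgr5-medium Ki67-high cells, 4.98 and 5.03 in Lgr5-high Ki67-high cells and 4.58 and 4.65 in Lgr5-high Ki67-low cells. Here replicate 1, not replicate 2, was the higher of the Lgr5-medium Ki67-low pair. The log2 difference was 1.57 ± 0.20 (SE; 95% interval 1.11 to 2.02; adjusted p = 0.00189).

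Pla2g4a (probe set 10358434; chr1:149829618-149961290), the cytosolic enzyme with the best known role in supplying arachidonic acid to both branches, had log2 values of 7.82 and 7.92 in Lgr5-medium Ki67-low cells and 7.22, 7.02, 7.0 and 7.63 in Lgr5-medium Ki67-high cells. In Lgr5-high cells it had 8.01 and 7.94 at high Ki67 and 8.14 and 8.33 at low Ki67. Its lowest group was thus Lgr5-medium Ki67-high, and the arrays of the other 3 groups lay between 7.82 and 8.33. The difference between low and high Ki67 at medium Lgr5 was 0.65 ± 0.16 (SE; 95% interval 0.29 to 1.01) on the log2 scale and missed the threshold (adjusted p = 0.0598). Without Lgr5-medium Ki67-high replicate 4, the highest array of that group, it was 0.79 with an adjusted p of 0.00216, and 6 of the 9 genes passed.

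**Figure D2:**
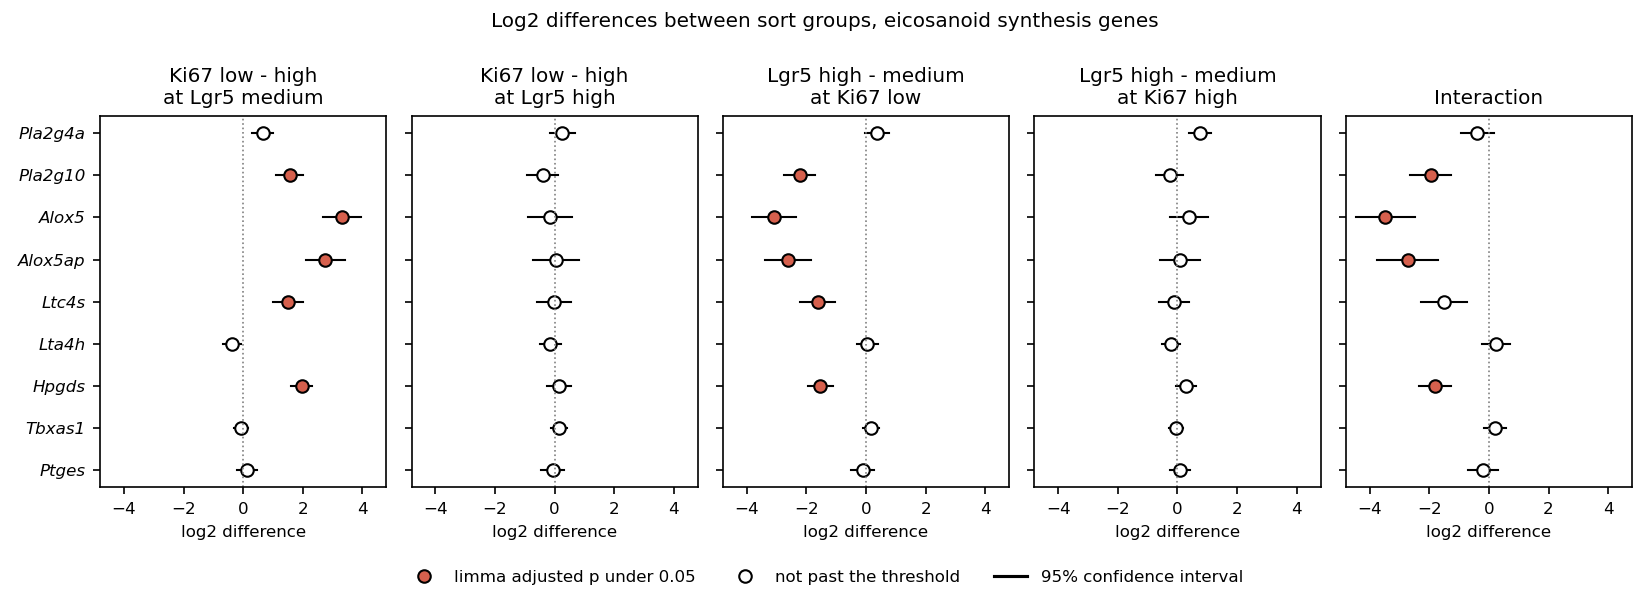
Log2 differences between sort groups (horizontal axis) for the 9 measured genes (vertical axis), with 1 panel per comparison and lines for the 95% confidence interval; filled points passed the limma adjusted p of 0.05. The 5 genes that rose in Lgr5-medium Ki67-low cells fell by 1.53 to 3.08 in Lgr5-high against Lgr5-medium cells at low Ki67, and none of the 9 passed in the comparison of both Lgr5-high groups.

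The next comparison asked the same of Lgr5-high cells, the crypt base stem cells. None of the 9 genes passed between low and high Ki67 (0 of 9, beside 0.00531% of all genes, which is 1 gene). The log2 differences ran from -0.39 (Pla2g10, 95% interval -0.91 to 0.13) to 0.27 (Pla2g4a, -0.15 to 0.68), and each limma adjusted p was 0.9998. At an unadjusted p under 0.05 the count was also 0 of 9, against 853 of all 18820 genes. For Alox5 the difference was -0.17 ± 0.33 (SE; 95% interval -0.91 to 0.57) and for Hpgds it was 0.15 ± 0.18 (-0.25 to 0.56). For these genes, and for Alox5ap, Ltc4s and Pla2g10, the difference at medium Lgr5 lies outside the interval at high Lgr5. For Pla2g4a (0.65 at medium Lgr5), Lta4h, Tbxas1 and Ptges it lies inside.

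At low Ki67, Lgr5-high cells had less of the same 5 genes than Lgr5-medium cells, in a comparison that shares the Lgr5-medium Ki67-low arrays with the first. The count was 5 of 9, all lower, where 2.84% of all genes passed in either direction and 2.18% were lower. Alox5 differed by -3.08 ± 0.33 (SE; adjusted p = 0.000855), Alox5ap by -2.63 ± 0.35 (adjusted p = 0.00268) and Pla2g10 by -2.22 ± 0.23 (adjusted p = 0.000775). Ltc4s differed by -1.63 ± 0.26 (adjusted p = 0.00791) and Hpgds by -1.53 ± 0.18 (adjusted p = 0.00149). Ltc4s lost its call without Lgr5-high Ki67-low replicate 2 (-1.58, adjusted p = 0.0832). Pla2g4a (0.37, adjusted p = 0.418), Lta4h (0.038), Ptges (-0.11) and Tbxas1 (0.15) did not pass.

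At high Ki67, Lgr5-high and Lgr5-medium cells showed no call among the 9 genes, where 0.935% of all genes passed. Pla2g4a came nearest, 0.76 ± 0.16 (SE; 95% interval 0.40 to 1.12) higher on the log2 scale in Lgr5-high cells with a limma adjusted p of 0.0627. Its arrays did not overlap between the groups, and neither did those of Pla2g10 (4.98 to 5.03 against 5.04 to 5.61). The share of all genes without overlap was not counted. Pla2g4a passed without Lgr5-medium Ki67-high replicate 4 (0.89, adjusted p = 0.00991) and with arrays weighted by their quality (0.87, adjusted p = 0.00384). The other 8 genes differed by -0.27 to 0.39. At an unadjusted p under 0.05, 1 of the 9 genes, Pla2g4a, was counted, against 2857 of all 18820 genes.

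The interaction, the Ki67 difference at high Lgr5 minus that at medium Lgr5, tests directly whether the Ki67 difference depended on the Lgr5 level. It passed for 4 of 9 genes, all lower, where 1.04% of all genes passed and 1.03% were lower. The values were -3.47 ± 0.44 (SE) for Alox5 (adjusted p = 0.00403), -2.72 ± 0.46 for Alox5ap (adjusted p = 0.0194), -1.96 ± 0.31 for Pla2g10 (adjusted p = 0.0138) and -1.82 ± 0.24 for Hpgds (adjusted p = 0.00537). Ltc4s had -1.51 ± 0.34 with an adjusted p of 0.0942. Alox5 and Hpgds passed in every fit that left out 1 array. Alox5ap and Pla2g10 did not pass once any 1 of the 4 Lgr5-high arrays was left out (adjusted p from 0.0683 to 0.127 and from 0.0647 to 0.0908), which left 2 of 9 genes. Ltc4s passed when replicate 1 of the Lgr5-medium Ki67-low group was left out (-1.91, adjusted p = 0.0174).

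The members also differed in which Lgr5-medium Ki67-low array was higher. From replicate 1 to replicate 2 the log2 value differed by 0.89 for Alox5, 0.98 for Alox5ap, 0.80 for Ltc4s and 0.22 for Hpgds, and by -0.78 for Pla2g10. Over the tuft cell list described next, 21 of 23 measured genes were higher in replicate 2 (median 0.64). In the Paneth cell list 7 of 8 were lower there (median -0.91), and in the goblet cell list 8 of 9 were lower (median -0.19). All 10 enterocyte genes were higher in replicate 2 (median 0.56), and so were 8 of 12 lymphocyte genes (median 0.51).

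Markers of several cell types moved with these genes, and their part in the result was not tested. Of 23 measured tuft cell genes, 19 were higher in Lgr5-medium Ki67-low than in Lgr5-medium Ki67-high cells, with a median log2 difference of 2.24. Among them were Spib (3.04), Sh2d6 (3.07), Plcb2 (2.65), a phospholipase of taste signalling, and Bmx (2.24). The 4 genes that did not pass were Gnat3 (0.67, limma adjusted p = 0.0626), Sucnr1 (0.29), Il25 (0.078) and Tas1r3 (0.031). The mean log2 level of this list was 5.95 to 6.5 on the Lgr5-medium Ki67-low arrays and 4.01 to 4.57 on the other 8. Some of its genes, such as Ptpn6, Vav1 and Fyb, are also known from blood cells. The enteroendocrine list rose as well, in 17 of 19 genes (median 2.52), with Rfx6 (2.60), Scgn (2.87), Chgb (2.61) and Neurod1 (2.52) as examples, and its level was 7.73 to 7.81 against 5.12 to 6.04. In the goblet list 7 of 9 genes rose (median 1.31), among them Bcas1 (1.76), Clca1 (1.48), the mucin Muc2 (1.49) and Spink4 (1.25), with levels of 10.59 to 10.96 against 9.24 to 9.68. The Paneth list, for which 4 of 8 genes rose (median 1.42; Pla2g2a, Habp2, Nupr1 and Ang4), overlapped between groups, at 9.98 to 10.76 against 8.97 to 10.05. That count ranged from 0 to 5 when single arrays were left out, whereas 17 to 19 tuft, 17 to 18 enteroendocrine and 7 to 8 goblet genes rose in those fits. Of 10 enterocyte genes, 0 passed in limma, and 0 had an unadjusted p under 0.05.

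**Figure D3:**
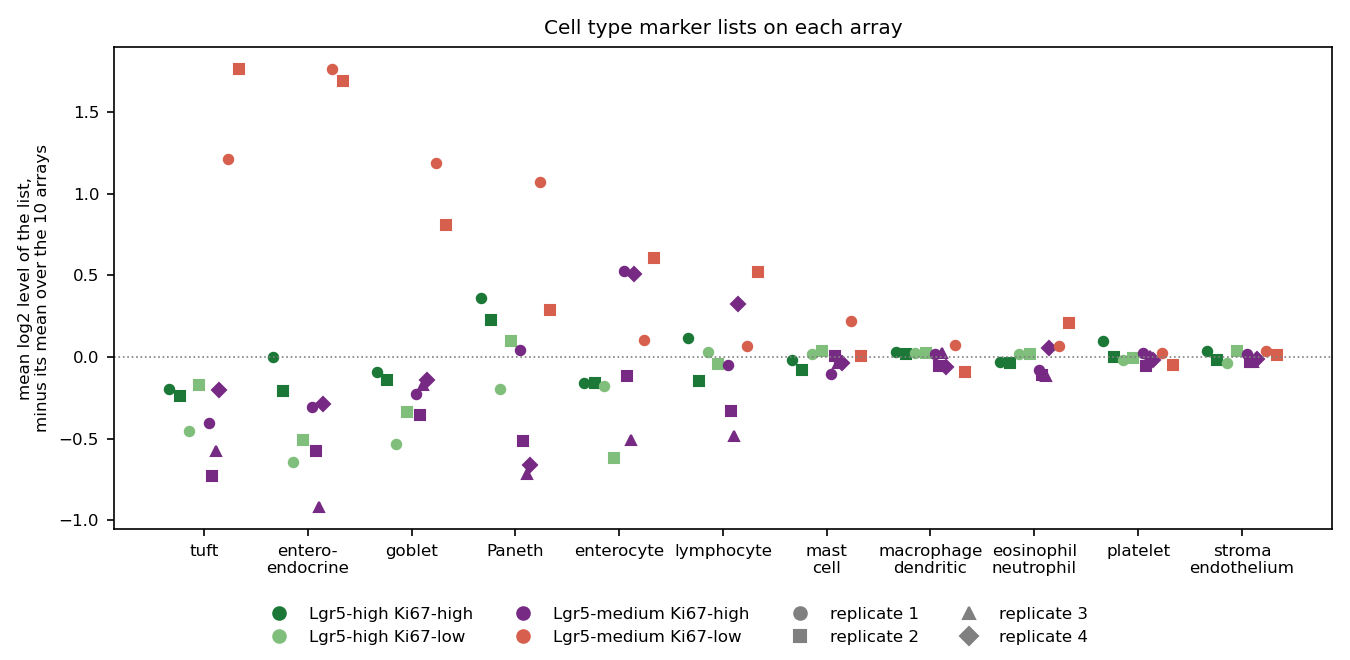
Mean log2 level of each cell type marker list on each array, minus the list's mean over the 10 arrays (vertical axis), by list (horizontal axis); colours give the sort group and shapes the replicate. The tuft, enteroendocrine and goblet lists are highest on both Lgr5-medium Ki67-low arrays. So is the eosinophil and neutrophil list, by less, and Siglecf, which tuft cells are also known to express, is the only gene of that list that passed. The macrophage, platelet and stroma lists differ less between arrays.

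The same enzymes are known from blood cells that a sort of epithelium could hold, so those markers are given beside them. Of 12 mast cell genes, 1 rose at medium Lgr5: Kit, a growth factor receptor (1.56, adjusted p = 0.000504). The mast cell protease Cpa3 lay between 2.51 and 2.75 on all 10 arrays. The IgE receptor chains lay between 2.24 and 2.49 (Fcer1a) and between 2.3 and 2.57 (Ms4a2). None of them had an increase in Lgr5-medium Ki67-low cells. The proteases Mcpt1 (0.38, adjusted p = 0.267) and Mcpt2 (0.42, adjusted p = 0.449) had higher means there and did not pass. The mean level of the list was 3.01 to 3.22 there and 2.89 to 3.03 on the other arrays. Of 10 eosinophil and neutrophil genes, 1 rose, Siglecf (2.12, adjusted p = 0.00256), a lectin that tuft cells are also known to express. The eosinophil granule genes Epx (2.58 to 3.14 on all arrays) and Prg2 (2.67 to 3.15) overlapped between the Ki67 groups at medium Lgr5. The mean level of this list, Siglecf included, was 3.23 to 3.37 on the Lgr5-medium Ki67-low arrays and 3.05 to 3.22 on the other arrays. Siglecf itself had 6.32 and 7.61 in Lgr5-medium Ki67-low cells, and the level of the list without it was not computed. Of 14 macrophage and dendritic cell genes 0 rose and 1, Itgam, fell (-0.62, adjusted p = 0.0285); the list's level was 4.02 to 4.18 in Lgr5-medium Ki67-low cells and 4.05 to 4.14 elsewhere. For Lyz2 the difference was 0.87. Of 12 lymphocyte genes 0 passed in limma (4 at an unadjusted p under 0.05), although their median difference was 0.53 and their mean level was 4.25 to 4.71 in Lgr5-medium Ki67-low cells and 3.71 to 4.51 in Lgr5-medium Ki67-high cells. None of the 6 platelet genes and none of the 12 stromal genes passed (0 and 1 at an unadjusted p under 0.05). Many of these genes, such as Cpa3, Fcer1a, Ms4a2, Epx and Prg2, are near the low end of the deposited values. No background reading was used to set a detection limit there. Lyz2, Kit and the lymphocyte gene Ccl5 were higher, with means of 8.55, 5.80 and 5.98 in Lgr5-medium Ki67-high cells, their lowest group.

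Across the 10 arrays, the genes whose values followed those of Alox5 most closely were the tuft cell genes Trpm5 (Pearson r = 0.994), a cation channel, Dclk1 (0.994), a kinase that marks tuft cells, and Avil (0.992). Over the 8 arrays without Lgr5-medium Ki67-low the correlations were 0.889, 0.903 and 0.849. For Alox5ap the nearest genes were Dclk1 (0.991), Avil (0.991) and Trpm5 (0.99), with 0.917, 0.88 and 0.854 over the 8 arrays. For Hpgds they were Kctd12 (0.987), Trpm5 (0.981) and Dclk1 (0.978), with 0.853, 0.809 and 0.742. Dclk1 itself stood at 8.23 and 8.84 in Lgr5-medium Ki67-low cells and between 4.79 and 5.77 on the other 8 arrays.

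Of the other genes, Ltc4s, Pla2g10 and Pla2g4a had group means at least 1 apart on the log2 scale, and their nearest genes were sought too. Ltc4s went with Aldh2 (0.967), Ptpn6 (0.967), which is in the tuft list, and Siglecf (0.958), but over the 8 other arrays these correlations were 0.346, 0.398 and 0.315. Pla2g10 went with Scnn1a (0.985), a sodium channel subunit, Agr2 (0.985), a goblet cell gene of protein folding, and Spats2l (0.978), with 0.874, 0.926 and 0.84 over the 8 arrays. Its correlation with the mean level of the goblet list was 0.965 over 10 arrays and 0.682 over 8. It was 0.90 and 0.201 with the enteroendocrine list, 0.541 and 0.687 with the enterocyte list and 0.842 and 0.013 with the tuft list. For Alox5 the order of the tuft and goblet lists was the other way. It had 0.994 and 0.884 with the tuft list, 0.918 and 0.392 with the goblet list and 0.672 and 0.624 with the lymphocyte list. Alox5ap had 0.993 and 0.873 with the tuft list and 0.725 and 0.854 with the lymphocyte list. Hpgds had 0.975 and 0.745 with the tuft list and 0.608 and 0.348 with the lymphocyte list. Ltc4s had 0.947 and 0.191 with the tuft list, 0.678 and 0.443 with the lymphocyte list and 0.597 and 0.531 with the enterocyte list. Pla2g4a had Atxn10 (0.976), Zmym2 (0.974) and Agr3 (0.969) nearest, with 0.988, 0.975 and 0.987 over the 8 arrays. These correlations describe 10 arrays of 4 sort groups, with pairs picked from among all genes above the median level, and the arrays share their groups.

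Other genes of the pathway mostly did not pass. Of 11 other phospholipases and lipases measured (13 listed), 3 were higher in Lgr5-medium Ki67-low than in Lgr5-medium Ki67-high cells. Pla2g2f, a secreted phospholipase, had log2 values of 7.39 and 6.41 in Lgr5-medium Ki67-low cells and 5.15 to 5.47 in Lgr5-medium Ki67-high cells, a difference of 1.61 ± 0.22 (SE; adjusted p = 0.00289). Mgll, which cleaves monoacylglycerols, had 4.29 and 4.64 against 3.42 to 3.63, a difference of 0.91 ± 0.11 (adjusted p = 0.00169). Both calls held in every fit without 1 array. Pla2g2a, a secreted phospholipase of Paneth cells that is also in the Paneth list, had 10.23 and 8.51 against 7.16 to 8.03 and a difference of 1.73 ± 0.41 (adjusted p = 0.0490). Leaving out replicate 1 of the Lgr5-medium Ki67-low group gave a difference of 0.87, and Pla2g2a passed in only 1 of the 10 fits that left out an array, the one that left out replicate 2 of the same group.

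Few of the other listed genes downstream of the phospholipases passed in this comparison. Of 14 other lipoxygenases and prostanoid synthases measured (15 listed), 0 passed in limma and 2 had an unadjusted p under 0.05. Ptgs2, the inducible cyclooxygenase, was at 3.32 and 3.76 in Lgr5-medium Ki67-low cells and at 2.86 to 3.31 in Lgr5-medium Ki67-high cells (difference 0.44 ± 0.15, adjusted p = 0.188). Of 12 genes of leukotriene processing, export and inactivation (13 listed), 1 was higher: Abcc4, an exporter of prostaglandins and leukotrienes, by 0.82 ± 0.17 (adjusted p = 0.031), a value that was 0.48 when replicate 1 of the Lgr5-medium Ki67-low group was left out (adjusted p = 0.311). Abcc4 also lost its call under quantile normalization (adjusted p = 0.0616) and in the fit of the 2 groups alone (adjusted p = 0.0822). Hpgd, which inactivates prostaglandins, lay between 8.56 and 9.45 on all arrays (difference 0.096, adjusted p = 0.883). Of 11 receptors measured (15 listed), 1 was higher: Ptgdr, a prostaglandin D2 receptor, by 0.66 ± 0.11 (adjusted p = 0.00981), from 2.86 to 3.06 up to 3.49 and 3.83. When replicate 2 of the Lgr5-medium Ki67-low group was left out its difference was 0.49 (adjusted p = 0.0886). The prostaglandin E2 receptor Ptger4 (0.19) and the cysteinyl leukotriene receptor Cysltr1 (0.13) did not pass.

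**Figure D4:**
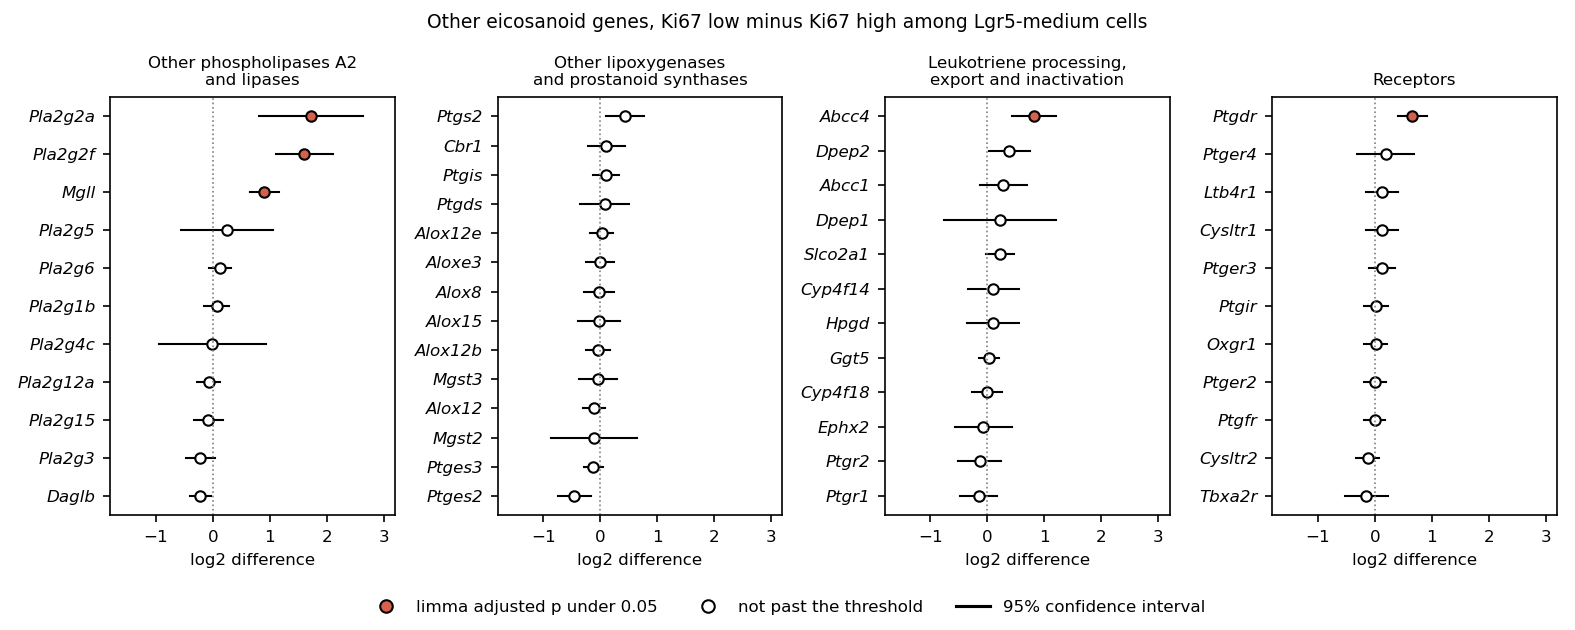
Log2 differences between low and high Ki67 cells at medium Lgr5 (horizontal axis) for the other eicosanoid genes measured, in 4 panels by role, with lines for the 95% confidence interval; filled points passed the limma adjusted p of 0.05. The 5 filled points are Pla2g2a, Pla2g2f, Mgll, Abcc4 and Ptgdr, and Pla2g2a has the widest interval of them.

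In the other comparisons few of these genes passed. At low Ki67, Pla2g2f (-1.34, adjusted p = 0.0229), Mgst3 (-0.77, adjusted p = 0.0427), a microsomal glutathione transferase, and Ptgdr (-0.62, adjusted p = 0.0341) were lower in Lgr5-high than in Lgr5-medium cells. Each of these 3 calls was lost in some fits without 1 array, with highest adjusted p of 0.128, 0.318 and 0.192. In the interaction Pla2g2f passed (-2.01, adjusted p = 0.0201), with an adjusted p of up to 0.137 when single arrays were left out. Between low and high Ki67 at high Lgr5, and between Lgr5 levels at high Ki67, 0 of the 48 measured genes of the 4 lists passed in limma, with 2 and 8 at an unadjusted p under 0.05, against 853 and 2857 of all 18820 genes.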

How the data were processed

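The deposited table holds 1 value for each of 35556 probe sets on 10 arrays. MAS5 and GCOS are the tools listed, without a role, in the submitters' processing notes. How the background was corrected, how arrays were normalized and which log base was used is not given in the sources used here. Since all deposited values fall between 1.16 and 13.8, they were taken as log2 values. Array medians lay between 4.23 and 4.40, and no further normalization was applied. The number of arrays limits the precision. Of the probe sets, 21218 carry 1 gene symbol in the platform's gene table, 1881 several, and 12457 are unnamed here; 21185 matched RefSeq (GRCm38.p6) by Entrez number. RefSeq also gave the gene coordinates and promoter windows. For genes with several probe sets (1386) the one with the highest mean was used.

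A model with 1 mean per sort group was fitted to all 10 arrays with limma 3.58.1 in R 4.3.3 (6 residual degrees of freedom; lmFit and eBayes), without a filter on low values, so that all 9 measured genes were tested. Benjamini-Hochberg adjustment of p-values ran over 18820 genes, with a threshold of 0.05; a log2 difference of 1 is a 2-fold difference. The procedure was checked on simulated data. The genes and lists were chosen with earlier results of these data known. All listed genes were named; of other pathway genes, those past the threshold and Ptgs2, Hpgd, Ptger4 and Cysltr1; of each marker list, up to 4 genes with the smallest p in the first comparison, to which Ptpn6, Vav1, Fyb, Cpa3, Fcer1a, Ms4a2, Mcpt1, Mcpt2, Epx, Prg2 and Lyz2 were added after their values were seen. The tuft genes Gnat3, Sucnr1, Il25 and Tas1r3 were also added after their values were seen. For genes with group means at least 1 apart, the 3 most correlated genes were named. Alternatives were quantile normalization, centring, array weights, a replicate block, only the groups compared, a filter that left out the 30% of genes with the lowest means, the mean of a gene's probe sets, and leaving out each array.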

Additional observations from a re-analysis of the deposited data

Results flagged for a closer look

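Among the 4 Lgr5-medium Ki67-high arrays, Alox5 was set apart on replicate 4. Its value of 5.29 lay above the others by a gap of 0.872 of the group's range. Chance sets apart about 1 in 20 groups, and the rule was applied to this group for each of the 9 measured genes. Alox5 alone was set apart. The Ki67 difference of Alox5 at medium Lgr5 ran from 2.86 to 3.75 over the fits without 1 array, this one included. The same array had the lowest array weight (0.2937), and its part in the result was not tested beyond these fits.

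The Ki67 difference differed between the Lgr5 levels for 4 genes by the interaction term of the limma model: Alox5 (-3.47), Alox5ap (-2.72), Hpgds (-1.82) and Pla2g10 (-1.96). Alox5ap and Pla2g10 lost this call when any 1 of the 4 Lgr5-high arrays was left out, while Alox5 and Hpgds passed in each fit without 1 array.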

How the results depend on the processing

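The counts of genes called (5, 0, 5, 0 and 4 of 9, in the order Ki67 at medium Lgr5, Ki67 at high Lgr5, Lgr5 at low Ki67, Lgr5 at high Ki67, interaction) kept within 1.5 times under quantile normalization, centring, the block, the 2 groups alone, the filter and mean probe sets; with array weights the count for Lgr5 at high Ki67 was 1. Over fits without 1 array they ran from 5 to 6, 0 to 0, 4 to 5, 0 to 1 and 2 to 5. Of 306 results under other settings 297 kept direction and call, and of 450 without 1 array 422 did. With a replicate block, Tbxas1 turned to 0.015 for Ki67 at medium Lgr5 and to 0.024 for Lgr5 at high Ki67; there Ltc4s lost its call at medium Lgr5 (1.52, adjusted p = 0.054) and Pla2g4a gained one (0.75, adjusted p = 0.0265). The Paneth count of 4 became 1 with the block and 0 with the 2 groups alone. Ltc4s at high Lgr5 turned from -0.0087 to 0.011 (quantile) and 0.0052 (centring). The cause of these changes was not tested.

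Equal replicate numbers did not pair arrays: correlations of deviations over genes ran from -0.304 to 0.0131. The crossed numbers, and all alternatives for marker lists and other pathway genes, were chosen after seeing the data. With numbers crossed in the Lgr5-medium Ki67-low group, the block called 881 genes for Lgr5 at low Ki67, against 502 uncrossed and 534 without a block. With all arrays kept, calls over all genes for Ki67 at medium Lgr5 ran from 352 (block) to 1184 (centring) beside 674, and for Lgr5 at high Ki67 from 6 (block) to 1135 (array weights) beside 176. Without single arrays they ran from 264 (without Lgr5-medium Ki67-low replicate 1) to 779, and from 0 (without Lgr5-high Ki67-high replicate 1) to 327.

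Without single arrays, small differences changed sign. For Ki67 at medium Lgr5 this was Tbxas1 (-0.13 to 0.0063). For Ki67 at high Lgr5 they were Alox5 (-0.42 to 0.083), Alox5ap (-0.10 to 0.18), Ltc4s (-0.27 to 0.25), Hpgds (-0.13 to 0.43) and Ptges (-0.26 to 0.14). For Lgr5 at low Ki67 they were Lta4h (-0.12 to 0.20) and Ptges (-0.30 to 0.085), and at high Ki67 Alox5ap (-0.063 to 0.27), Ltc4s (-0.38 to 0.14), Tbxas1 (-0.11 to 0.0026) and Ptges (-0.11 to 0.28). In the interaction it was Ptges (-0.39 to 0.0075).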
